A study of Mus musculus with 4 samples.

Results

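The regions described here are the places in the mouse genome where TFE3 was called on chromatin in starved fibroblasts and in neither of the other conditions of the study. They were chosen by pooling 3 peak lists (control, starvation and tunicamycin), joining any that shared 1 bp or more, and keeping the merged regions that held a starvation peak and no control or tunicamycin peak. This left 388 of 3415 regions, or 11.4% (95% exact binomial interval 10.3 to 12.5). Each of the 388 held exactly 1 starvation peak, so they made up 22.7% of the 1712 peaks of the starvation list (20.7 to 24.7). The calls themselves chose the regions, so these shares, and the scores and folds below, describe the choice and are not tests of it.

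TFE3 belongs to the MITF/TFE family of transcription factors, which bind DNA through a basic region and pair through a leucine zipper. In fed cells it is phosphorylated downstream of the kinase mTORC1 and held in the cytosol, and on nutrient withdrawal it loses this phosphorylation and moves into the nucleus. There it binds E-box elements, and it is known for activating genes of lysosomes and autophagy, the pathways by which a starved cell recycles its own material. Endoplasmic reticulum stress also brings it into the nucleus.

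The cells were mouse embryonic fibroblasts labelled CRL-2977, grown in DMEM with 10% fetal bovine serum, and all groups came from these same cells with no genetic change named. Control cells stayed in full medium, starved cells spent 2 hours in Earle's balanced salt solution, and stressed cells received 0.1 µg/ml tunicamycin, a blocker of N-linked glycosylation, over 16 hours. Cells were fixed in 1% formaldehyde, and chromatin was precipitated with a TFE3 antibody in these 3 groups and with rabbit IgG in a background group. Each of the 4 groups was 1 library. There is thus no replicate, every comparison is between libraries, and a difference between the starved cells and the others cannot be told apart from a difference between their libraries. Relative to the IgG library, the starvation library was 1.62 times as deep, the control library 1.54 times and the tunicamycin library 2.14 times. All positions are in build mm9 and count from 1.

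Starvation-only regions were mostly weak peaks. Their median fold enrichment at the summit, as the authors' ratio over local background, was 5.32 (interquartile range 4.76 to 6.07, range 2.75 to 10.5). The other 1324 starvation peaks, which overlapped a control or tunicamycin peak, had a median of 6.81 (5.70 to 8.67, up to 25.8). The authors' score, which is 10 times the −log10 q-value with decimals dropped, had a median of 60 in the starvation-only peaks (49 to 84 for the middle 50%) and 108.5 in the others (76 to 178). The summit of a starvation-only peak rested on a median of 31.5 TFE3 tags (sequenced fragments over that base, range 21 to 71), against 41 in the others (20 to 223). Peaks called in starvation and control without tunicamycin, only 32 in number, had a median score of 58.5 and a median fold of 5.28. The 1484 tunicamycin-only peaks, each against the background of their own list, had a median fold of 5.66, and the 220 control-only peaks one of 5.88.

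The share of starvation-only peaks grew as scores fell. The list was ordered by score and split into 10 bins of equal size. The bin of highest scores (261 to 941) held 0 starvation-only peaks among 172, with an exact interval up to 2.12%, and the next held 5 of 171. The share then climbed at every step, from 5.85% in bin 3 (2.84 to 10.5) to 25.1% in bin 6 (18.8 to 32.3). It came to 56.4% (48.6 to 63.9) in the lowest, where 97 of 172 peaks had no partner in the other lists. The lowest 25% of the list by score held 202 of the 388 regions, and the highest 25% held 7.

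**Figure D1:**
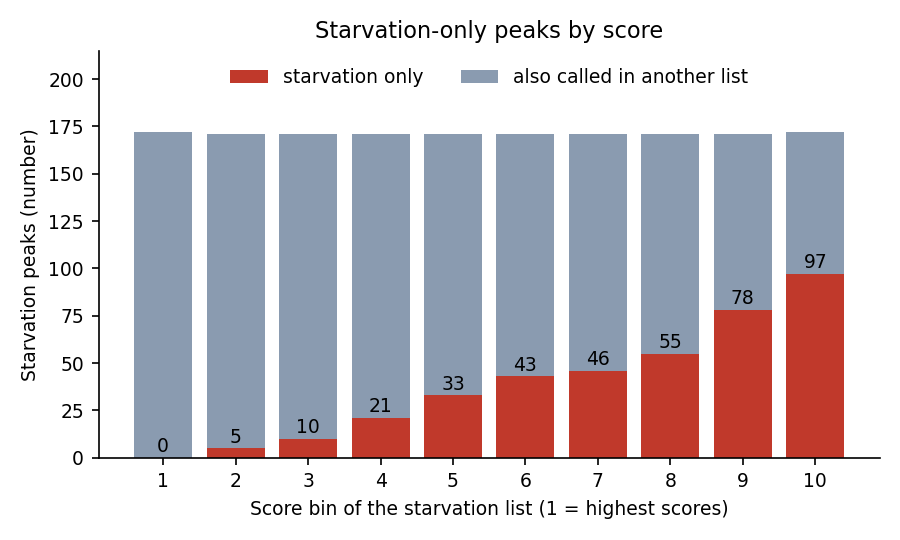
Number of starvation peaks (vertical axis) in each of 10 score bins of the starvation list (horizontal axis, bin 1 holds the highest scores), with peaks called in starvation only in red and those that overlap a control or tunicamycin peak in grey-blue. The red count printed on each bar goes from 0 in bin 1 to 97 in bin 10.

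Although weak as a class, the starvation-only regions reached well into the list. The strongest, chr19:5846670-5847133, ranked 193 of 1712 with a score of 244. Its summit carried 61 TFE3 tags (95% exact Poisson interval 46.7 to 78.4) at a fold of 10.5, over a 1 kb window with 14 IgG tags. Its nearest tunicamycin peak lay 236 kb away and its nearest control peak 294 kb away. The second, chr15:75616667-75617051, held the most TFE3 tags of the strongest 10, at 65 (50.2 to 82.8). Its fold of 8.24 was lower because the IgG library had 4 tags at the same summit. The third, chr16:45968871-45969164, had 54 tags (40.6 to 70.5) at a fold of 8.83, and a tunicamycin peak lay 1159 bp from it. The intervals of these 3 tag numbers overlap, so their order by tags is not resolved.

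The next 5 all lay where the IgG signal did not exceed its genome-wide rate, so their folds follow their tags directly. At chr12:88213233-88213578, 49 tags (36.3 to 64.8) gave a fold of 9.42, and at chr9:21301258-21301743, 50 tags (37.1 to 65.9) gave 9.60. The next, chr10:127079447-127079780, had 46 tags at a fold of 8.86. It was followed by chr5:93696273-93696586 with 45 tags at 8.67, and by chr7:150969970-150970303 with 44 tags at 8.49. The last of the strongest 10 were chr15:28010865-28011238, where 54 TFE3 tags stood over 4 IgG tags at a fold of 6.88, and chr2:60778424-60778724, where 47 stood over 3 at a fold of 7.51. Widths of these 10 peaks ran from 294 to 486 bp, all above the starvation-only median of 231.5 bp.

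At the other end, the 3 lowest-scored regions had scores of 17, 16 and 16 and each lay over an IgG signal at the summit itself. The peak at chr6:137530785-137530994 had 34 TFE3 tags over 7 IgG tags, a fold of 2.75. The peak at chr10:26705321-26705807 had 29 over 5 and a fold of 3.15, and the peak at chr11:115949016-115949221 had 25 over 4 and a fold of 3.29. The lowest score, 16, was also the lowest of the whole starvation list.

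Few regions were starvation-only by a narrow margin of position. A control or tunicamycin peak lay within 100 bp of 2 of the 388 regions, within 500 bp of 4 and within 1 kb of 7. The closest was chr14:66766402-66766643 (fold 6.07, 31 tags), which missed a tunicamycin peak of fold 4.98 by 39 bp. Next was chr18:78435412-78435643 (fold 5.14, 26 tags), 91 bp from a control peak of fold 6.41. The third was chr18:13132711-13133007 (fold 4.95, 25 tags), 247 bp from a tunicamycin peak of fold 4.33. On the other side of the rule, the smallest overlap that made a starvation peak shared was 36 bp, at chr13:60511350-60511732 (fold 7.05) with a control peak of fold 5.71. The next were 79 bp at chr9:87962069-87962299 (fold 6.07) and 94 bp at chr18:13131780-13132110 (fold 5.14), where the partner was the same tunicamycin peak of fold 4.33 that lay 247 bp from the member above. In all 7 regions with another list's peak within 1 kb, the 2 summits were at least 365 bp apart.

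Most starvation-only regions were far from any other call. The median distance to the nearest tunicamycin peak was 211 kb, to the nearest other starvation peak 257 kb, and to the nearest control peak 1718 kb; the control list is the shortest of the 3. A tunicamycin peak lay within 10 kb of 27 of the 388 (6.96%, 4.64 to 9.96). For the 1123 starvation peaks that overlapped a tunicamycin peak but no control peak, the next tunicamycin peak lay within 10 kb of 50 (4.45%, 3.32 to 5.83). The intervals overlap.

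The local background under these regions was read from the files as numbers of IgG tags. MACS2 takes the highest of several IgG rates as the background of a peak: the genome-wide rate and the rates in windows of different sizes around the summit. Once a whole number of TFE3 tags was found for a peak, its background followed from the fold. It matched 1 of 4 sources in each of the 388 regions: the genome-wide rate, or a whole number of IgG tags in 1 fragment length, in 1 kb or in 10 kb. The genome-wide rate of the starvation list was 2.32 tags per fragment length of 193 bp.

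Starvation-only regions had the genome-wide background in 153 of 388 cases (39.4%, 34.5 to 44.5), against 604 of the 1315 other starvation peaks with a recovered background (45.9%, 43.2 to 48.7). A window of 1 fragment length at the summit set the background in 96 of the 388 (24.7%, 20.5 to 29.3) and in 29.1% of the others (26.7 to 31.7). The 1 kb window set it in 79 (20.4%, 16.5 to 24.7) against 14.5% (12.7 to 16.5), and the 10 kb window in 60 (15.5%, 12.0 to 19.5) against 10.4% (8.82 to 12.2). Read the other way, starvation-only regions were 20.2% of the starvation peaks at the genome-wide background (17.4 to 23.3) and 20.0% of those set by the fragment window (16.5 to 23.9). They were 29.3% of those set by the 1 kb window (23.9 to 35.1) and 30.5% of those set by the 10 kb window (24.1 to 37.4). The share at the genome-wide background was lower than in the other peaks in 3 of 4 equal bins of the list by score. It was 35.5% against 48.7% in bin 2, 36.8% against 48.9% in bin 3 and 41.6% against 46.0% in bin 4, the lowest. In bin 1, with 7 starvation-only peaks, it was 57.1% against 41.3%. The finer split into 10 bins did not keep this order at low scores: the share was 44.9% against 44.1% in bin 9 of 10 and 32.0% against 24.0% in bin 10, which together hold 175 of the 388 regions, and 50% against 49.1% in bin 3. The background enters the score and so the call, and its part in these regions being called in 1 list was not tested.

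**Figure D2:**
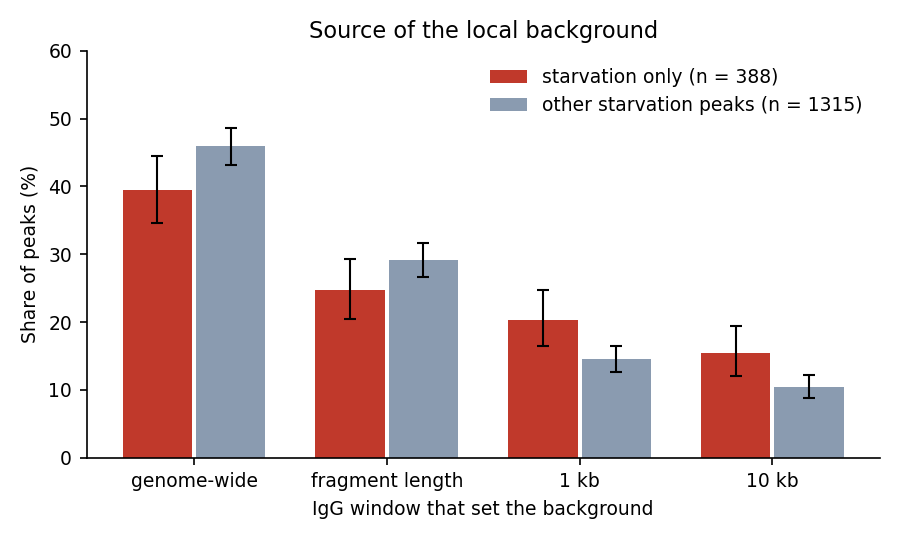
Share of peaks in percent (vertical axis) by the IgG rate that set the local background (horizontal axis), for the 388 starvation-only peaks in red and the 1315 other starvation peaks with a recovered background in grey-blue. Bars are shares and lines their 95% exact binomial intervals over peaks; the red bars are lower for the genome-wide rate and the fragment window and higher for the 1 kb and 10 kb windows.

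Where the fragment window set the background, IgG tags at the same summit could be set beside the TFE3 tags. Among these 96 regions, 39 had 3 IgG tags, 30 had 4 and 17 had 5, so the IgG signal was mostly a few tags. The remaining 10 had 6 to 15. The median TFE3 number in the 96 was 35 tags, above the 29 of the 153 regions at the genome-wide background, while their median fold was lower, at 4.62 against 5.70. The highest tag number of all 388, 71, stood over 15 IgG tags and gave a fold of 2.81, while the highest fold, 10.5, rested on 61 tags.

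**Figure D3:**
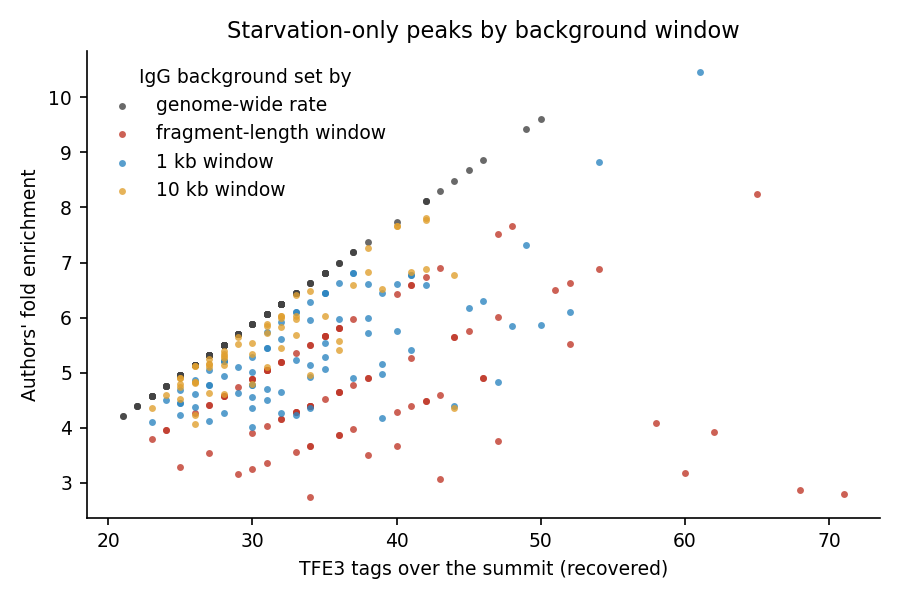
Authors' fold enrichment (vertical axis) against recovered TFE3 tags over the summit (horizontal axis) for the 388 starvation-only peaks, 1 point per peak, coloured by the IgG rate that set the background. Points at the genome-wide rate lie on 1 line; those set by the fragment window lie below it, with the lowest at a fold of 2.75 and 34 tags.

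The region with 71 TFE3 tags was 1 of 5 starvation-only regions packed into 95.6 kb of chromosome 6, from 47626553 to 47722139. No other stretch held as many: of all groups of regions less than 100 kb apart, 348 were single, 16 were pairs, 1 was a group of 3 and 1 was this group of 5. The peaks there had many TFE3 tags over many IgG tags. Within the 5, TFE3 and IgG tags at the summit were 60 over 11 at chr6:47626553-47626778 and 58 over 8 at chr6:47635223-47635449. They were 71 over 15 at chr6:47694064-47694275 and 68 over 14 at chr6:47702746-47702971. The last, chr6:47721946-47722139, had 44 TFE3 tags with the background set by 284 IgG tags in 10 kb. Folds of the 5 ran from 2.81 to 4.35. The same stretch held 2 further starvation peaks that overlapped tunicamycin peaks, 1 tunicamycin-only peak (fold 3.64, 76 TFE3 tags over 9 IgG tags) and 0 control peaks. Some steps between summits were alike. In the densest part, 4 successive summits, the first that of the tunicamycin-only peak, were 4278, 4286 and 4314 bp apart. Other neighbours were 8606 and 8738 bp apart, which is 2.01 and 2.04 times 4286 bp, the median of the 3 short steps. The steps of 54691 and 10524 bp were no whole multiple of 4286 bp. That unit came from these same steps, seen beforehand, so a regular spacing was not tested. Why TFE3 and IgG tags are both high there was not tested.

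Pairs of neighbouring starvation-only regions were rare. Only 2 pairs lay within 1 kb. On chromosome 19, chr19:5845384-5845785 (fold 4.91, 46 tags over 5 IgG tags) lay 884 bp from the strongest region of all. On chromosome 5, chr5:125871965-125872358 (fold 6.76, 41 tags) lay 943 bp from chr5:125873302-125873586 (fold 7.67, 48 tags over 3 IgG tags). Neither pair had a tunicamycin or control peak within 100 kb.

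What a missing call allows was worked out from the IgG background and the lowest p of each list. The depth of a TFE3 library entered only in rounding to whole tags. The control and tunicamycin lists give no value at these regions. With each region's IgG background carried over to the other libraries, the fold it had in starvation would have reached the lowest −log10 p of the tunicamycin list, 4.70, in 388 of 388 regions. That count was fixed in advance, because every starvation peak had a −log10 p of at least 5.27, so it tells nothing particular to these regions. In the control library the starvation fold would have reached the lowest −log10 p of that list, 5.85, in 382 of 388. The same count was not made for the other starvation peaks, so it too tells nothing particular to these regions. In the tunicamycin library the lowest p of its own list needed a median of 62.8% of the starvation fold (interquartile range 54.9 to 69.3, range 31.6 to 99.6). In the control library it needed a median of 76.1% (67.4 to 84.0, range 41.4 to 105). For the strongest region on chromosome 19, 31.6% of its starvation fold would have reached that p in tunicamycin and 41.4% in control. For the region of lowest −log10 q, chr10:26705321-26705807, the figures were 91.5% and 101%. Folds below these shares of the starvation fold could be present in either library without a call. A fold includes the background itself, so a share of a fold is not a share of TFE3 binding.

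**Figure D4:**
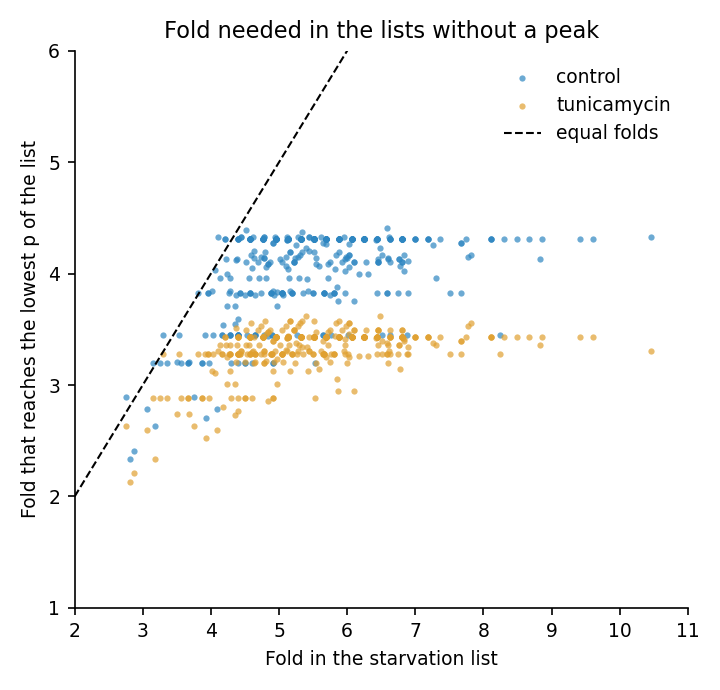
Fold that reaches the lowest p-value of the control list (blue) or the tunicamycin list (yellow) on the vertical axis, against the fold in the starvation list on the horizontal axis, for the 388 starvation-only regions. Points below the dashed line of equal folds need less than the starvation fold; all 388 yellow points lie below it, the closest at 99.6% of the starvation fold, while some blue points lie on or above it.

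The p-value is not the whole condition for a call. MACS2 also asks for a stretch at least as long as a fragment, and the shortest peaks were 193 bp in starvation, 212 bp in tunicamycin and 149 bp in control. The lists themselves give a stricter measure. Among tunicamycin peaks at the genome-wide background the lowest fold called was 3.69, on 26 tags. All 153 starvation-only regions at the genome-wide background had a higher starvation fold (4.21 to 9.60, median 5.70), and 17 of them exceeded 6.84, the median fold of those tunicamycin peaks. That all 153 were higher was fixed in advance, because 4.21 was also the lowest fold at this background in the whole starvation list. In the control list the lowest fold called at the genome-wide background was 5.01, on 20 tags, and 122 of the 153 had a higher starvation fold. The counts of 122 and 17 were not made for the other starvation peaks at this background. Those peaks had a higher median fold than the 153, so neither count tells anything particular to these regions. The genome-wide rate per fragment length also differed between the lists, so equal folds in different lists rest on unlike tag numbers. For scale, the regions called in both stresses and not in control had a median fold of 6.59 among starvation peaks and 7.48 among tunicamycin peaks.

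Starvation-only peaks were also narrow, with a median width of 231.5 bp (interquartile range 209 to 274) against 276 bp (229 to 336) in the other starvation peaks. Of the 388, 27 had the shortest width of the list, 193 bp (6.96%, 4.64 to 9.96), against 43 of the 1324 others (3.25%, 2.36 to 4.35). Width follows score, and within the 4 score bins the medians lay close together. From the highest to the lowest bin they were 346, 264.5, 231 and 223 bp in starvation-only peaks and 352, 275, 240 and 217 bp in the others. The summit lay in the middle 50% of the peak in 362 of the 388 (93.3%, 90.3 to 95.6) and in 1292 of the 1324 others (97.6%, 96.6 to 98.3).

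Starvation-only regions lay on all 19 autosomes and on X. Their share of a chromosome's starvation peaks had an interval that held the overall 22.7% on 17 of the 20 chromosomes. The exceptions were chromosome 5, with 17 of 124 (13.7%, 8.19 to 21.0), chromosome 6, with 36 of 114 (31.6%, 23.2 to 40.9), and X, with 7 of 14 (50%, 23.0 to 77.0). The tunicamycin list had 233 peaks on chromosome 5, 167 on chromosome 6 and 13 on X, so the peaks available for overlap differed. Their part in these shares was not tested. With 20 intervals of 95%, about 1 is outside by counting error alone. On chromosome 6, leaving out the group of 5 and the other 2 starvation peaks of its stretch gave 31 of 107 (29.0%, 20.6 to 38.5), an interval that held the overall share. The stretch was picked for its many starvation-only regions, so leaving it out was bound to lower the share and does not account for the exception. The 7 regions on X all lay at the genome-wide background. The highest was chrX:69061884-69062169, where 35 tags (24.4 to 48.7) gave a fold of 6.81, and the lowest chrX:71558232-71558483, where 23 tags (14.6 to 34.5) gave 4.58. The other 5 started at 99352497, 7182410, 103222341, 147530928 and 35826644, with folds from 5.14 to 6.44, and none of the 7 was among the strongest 10.

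**Figure D5:**
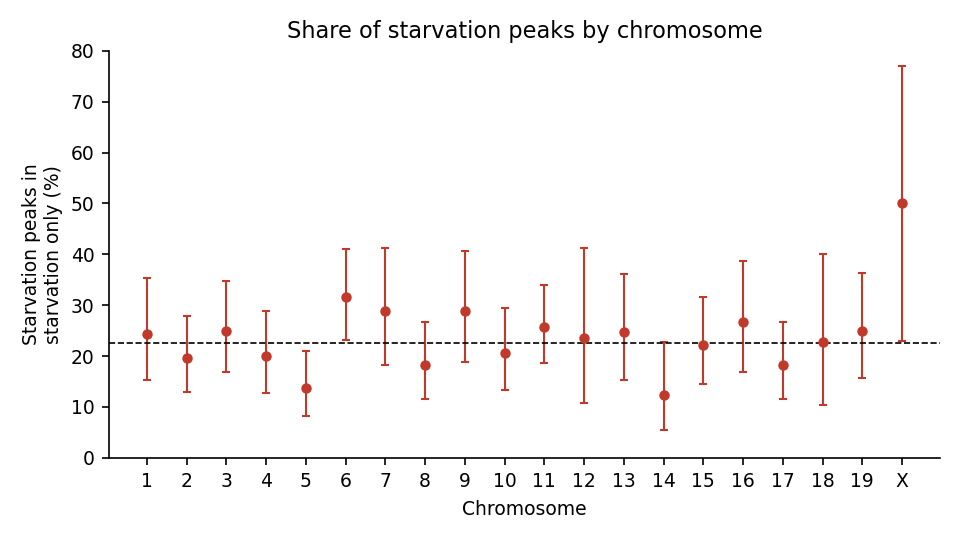
Share of each chromosome's starvation peaks that were called in starvation only, in percent (vertical axis), by chromosome (horizontal axis). Points are shares, lines their 95% exact binomial intervals over peaks, and the dashed line the overall 22.7%; chromosome 5 lies below it, and chromosome 6 and X above it.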

How the data were processed

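TFE3 ChIP-seq of 3 groups of fibroblasts and an IgG background library were used, 1 library each. Per the submitters' processing notes, Bowtie, MACS2 and build mm9 were used; versions and settings are not given in the sources used here. Each peak name joins its TFE3 library to the negative control, so calling was done library by library. Per peak the authors deposited a score, a fold (a linear ratio at the summit), and −log10 p-value and −log10 q-value columns. In 100% of peaks the score was 10 times −log10 q with decimals dropped.

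TFE3 tags and IgG background were recovered from fold and p by inverting the MACS2 formulas (pseudocount 1), a step no label records. A peak was resolved when 1 whole tag number met p within 0.004. This resolved 388 of 388 starvation-only peaks and 99.5% of the starvation list. A background was assigned to 1 kb or 10 kb when within 0.02 of a whole IgG tag, and one fitting both went to 1 kb. The recovery was tested on data simulated under those formulas, so the test bears on the arithmetic and leaves the formulas themselves unchecked. Backgrounds were carried to another library by its fragment length for the 1 kb and 10 kb windows, and as they were for the fragment window.

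Intervals are 95% exact binomial (Clopper-Pearson) over peaks or exact Poisson over tags, and cover counting error only. With 1 library per group no test between conditions was made. Named regions were the 10 of highest and 3 of lowest score, the 3 nearest to and 3 least overlapping with another list, and those on X. The chromosome 6 group, the pairs, and the region with the most tags were singled out after their values were seen. The regions and rules were chosen with earlier results of these data known. Genes, promoters and motifs were planned, but no mm9 sequence or annotation was used here, so regions are named by position. Scripts ran on scipy 1.17.1, numpy 2.4.6, pandas 2.3.3 and Python 3.11.15, with figures from matplotlib 3.10.9.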

Additional observations from a re-analysis of the deposited data

How the results depend on the processing

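The count of starvation-only regions, 388, follows how the lists are cut. It was 258 when only peaks scoring 68 or more (median of the control list) were kept, 134 at 108 or more (its 75th percentile), and 133 when both stress lists were cut to the 422 peaks of the control list. These cuts also removed partner peaks, so the 3 counts include peaks that overlap another list's peak in the full lists. Of the 388 regions, only 166 scored 68 or more, 41 scored 108 or more and 6 ranked within the first 422. The count stayed within 1.5 times with a 50% reciprocal overlap (402), with peaks within 500 bp merged (384) and without the chromosome 6 group (383, added after seeing the data). The median fold, 5.32, was 5.70 at the genome-wide background only and 6.25 at scores of at least 68. It was 5.32 both without regions near another list's peak (10 kb) and without the chromosome 6 group. The share at the genome-wide background, 39.4%, was 39.4% with the stricter tolerance of 0.002 and 39.9% without that group. Motif and promoter alternatives were not run. No replicate could be left out, and no paired analysis was possible because each group is 1 library. The other lists give no value where nothing was called, so weaker signals there can go uncalled. Any part of library depth in this was not tested.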
